A study of Homo sapiens with 6 samples.

Results

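The genes described here are 44 heat shock proteins and chaperones, out of 58735 genes in a table deposited for RKO, an established line from a human colorectal carcinoma. They were named one by one, from 9 families of protein folding genes, and they were chosen by their FPKM in these same 6 libraries, so the differences between the groups are given for them as a description without a test. All 44 passed the filter on low values (0.5 FPKM or more in 3 or more libraries), as did 16061 genes in all. FPKM is a fragment number scaled to gene length and, here, to a size factor for each library. It allows a rough comparison of levels between genes, which depends on the annotated exon length.

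RKO control cells (Vector in the study and negative control in the labels, 3 libraries) were compared with RKO cells stably overexpressing the long noncoding RNA LOC101927668 (LOC_OE, 3 libraries). The overexpressing cells had been infected with a plenti6 lentivirus holding the full transcript and selected with puromycin, and the labels give no other treatment and no heat stress. The study calls the 3 libraries of each group biological replicates, but no source says whether they came from separate infections, so p-values measure the spread between these samples, which may be that of 1 stable line. LOC101927668 had at most 1 read in a Vector library, compared with 231, 270 and 276 in LOC_OE replicates 1, 2 and 3.

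Molecular chaperones hold newly made or damaged proteins until these have folded. Hsp70 proteins bind short unfolded stretches and are driven by J-domain proteins and nucleotide exchange factors, Hsp90 and its cochaperones act later on kinases and hormone receptors, and the ring-shaped chaperonins Hsp60 (in mitochondria) and TRiC (in the cytosol) enclose a whole protein. In the heat shock response HSF1 binds heat shock elements, repeats of the letters GAA in alternating orientation, and raises the transcription of many of these genes, and tumour cells often carry high levels of them.

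LOC_OE replicate 1 stood apart from the other libraries over all genes. Its correlation across genes with LOC_OE replicates 2 and 3 was 0.967 and 0.962, against 0.982 between those 2 and 0.982 to 0.983 among the Vector libraries. The libraries held 15008842 to 18410231 reads on genes, the most in LOC_OE replicate 1. The sum of FPKM was 264149.8 to 280647.6 in Vector, 310012.3 and 305701.8 in LOC_OE replicates 2 and 3, and 360434 in LOC_OE replicate 1. Rescaling every library to the same sum lowered the median log2 difference of all genes from 0.02 to −0.18. Where it turned the sign of a chaperone gene's difference between the groups, the value is given beside that gene. Whether libraries lay above, below or within the Vector range refers to FPKM as deposited, and these counts were not repeated after rescaling. Of 7 epithelial markers, KRT8, KRT18, EPCAM and CDX2 were detected at 3.97 to 67.5 FPKM, with KRT18 at 67.5 FPKM in LOC_OE replicate 1 and at 18.1 to 25.3 FPKM elsewhere, KRT19 and VIL1 were near 0, and CDH1 was at 0 in every library. None of the 9 haematopoietic, fibroblast and endothelial markers exceeded 0.142 FPKM. In these bulk samples, a change in the number of expressing cells and a change in RNA per cell cannot be told apart.

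The chaperone genes were high in LOC_OE replicate 1 and, for most families, close to Vector in the other two LOC_OE libraries. The median difference of the 44 genes from the Vector mean, on the log2(FPKM + 1) scale, was 0.95 in LOC_OE replicate 1, 0.15 in replicate 2 and 0.06 in replicate 3, whereas the median over all genes tested was 0.03, 0.01 and 0.01. With every library rescaled to the same sum of FPKM, the medians of the chaperones were 0.59, −0.04 and −0.11, and those of all genes were −0.27, −0.14 and −0.12. Together the 44 genes took 1.22% to 1.26% of the FPKM sum in the Vector libraries, 1.97% in LOC_OE replicate 1, and 1.21% and 1.17% in LOC_OE replicates 2 and 3. LOC_OE replicate 1 thus held a larger share of chaperone transcripts than any other library. The share of LOC_OE replicate 3 was the lowest, and that of LOC_OE replicate 2 was level with the lowest Vector share (1.214% against 1.217%).

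Of the 44 genes, 39 were highest in LOC_OE replicate 1, a position that 33.4% of all genes tested also held. HSPA9, DNAJB4, PFDN2, PFDN6 and HSF2 were the 5 exceptions. LOC_OE replicate 1 was at least 1.5-fold above the mean of LOC_OE replicates 2 and 3, on FPKM + 1, for 27 of the 44 genes, compared with 10.4% of all genes, and at least 1.5-fold below it for 0, compared with 8.22%. In 20 of the 39 genes that peaked there, LOC_OE replicates 2 and 3 were also above every Vector library (15.5% of all genes). In 10 they were below every Vector library (5.35% of all genes), and in the other 9 they were not both outside the Vector range on 1 side (12.6% of all genes). The members were picked with these values in view, so nothing is read from the gap between such counts and the background.

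**Figure D1:**
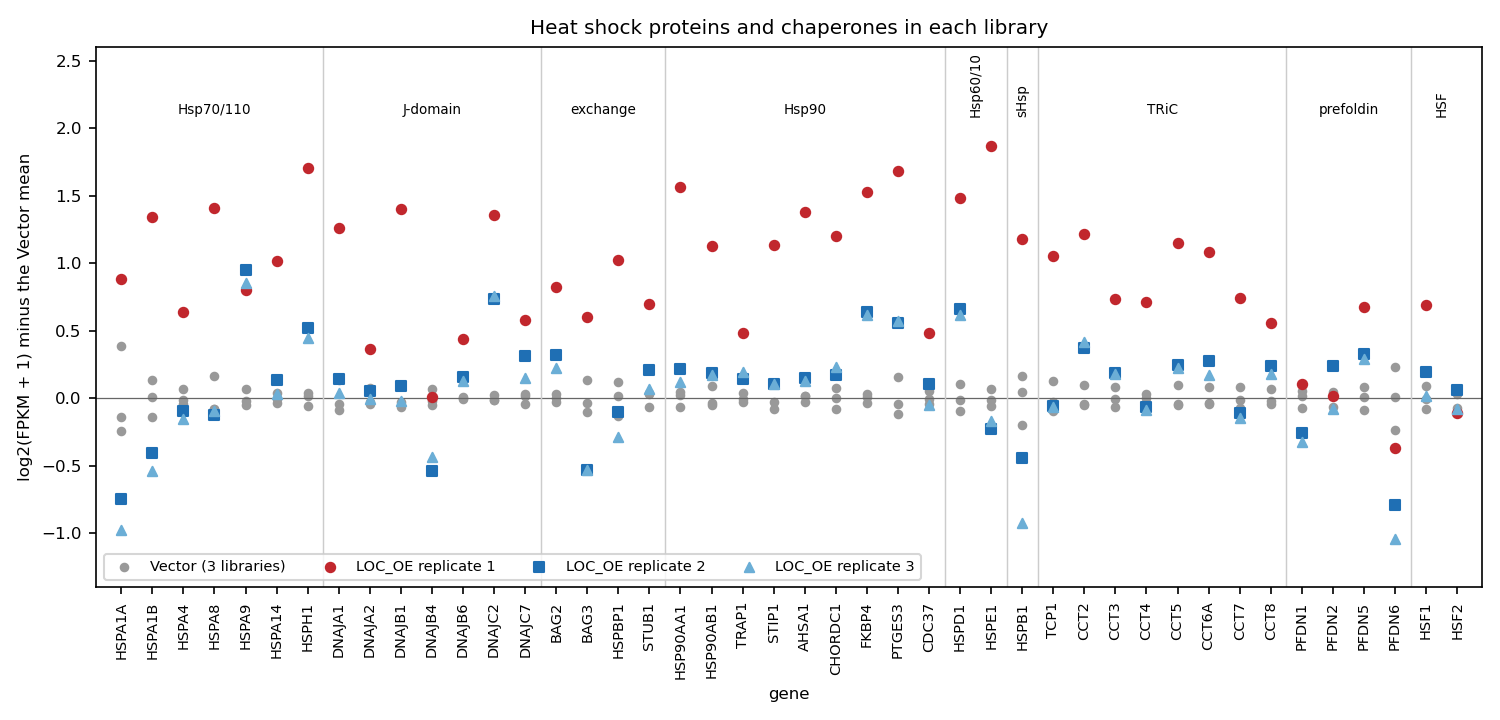
Each column is 1 of the 44 genes, ordered by family, and the vertical axis is its log2(FPKM + 1) minus the mean of the 3 Vector libraries. Grey points are Vector libraries, red circles LOC_OE replicate 1, dark blue squares replicate 2 and light blue triangles replicate 3, and the red circle is the highest point in 39 of the 44 columns.

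By the fit over all genes, 4 of the 44 genes were higher in LOC_OE at an adjusted p under 0.05 and a fold of at least 1.5, where 4.63% of all genes were, and 1 was lower, where 5.58% were. The 4 were HSPA9, DNAJC2, FKBP4 and HSPD1, and the 1 was PFDN6. Without the fold threshold the counts stayed at 4 and 1 (10.7% and 9.74% of all genes). With LOC_OE replicate 1 left out, the same 4 genes were higher (4.56% of all genes) and 3 were lower (5.84%), namely PFDN6, HSPA1A and HSPB1. On FPKM as deposited, all 3 LOC_OE libraries were above all 3 Vector libraries for 21 genes (24.4% of all genes), and all 3 were below for PFDN6 alone (20.9%). LOC_OE replicates 2 and 3 by themselves were above every Vector library for 21 genes (32.4%) and below for 12 (29.2%). The median log2 difference of the 44 genes between the groups was 0.36, with 37 genes above 0, and fell to 0.10, with 29 above 0, without LOC_OE replicate 1. After rescaling to the same sum of FPKM the median was 0.11, and HSPA1B, HSPA4, DNAJA2, HSPBP1, CDC37, CCT4, CCT7 and PFDN2 changed sign. Because the genes were selected on this contrast, these counts describe them and support no statement about chaperones in general.

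**Figure D2:**
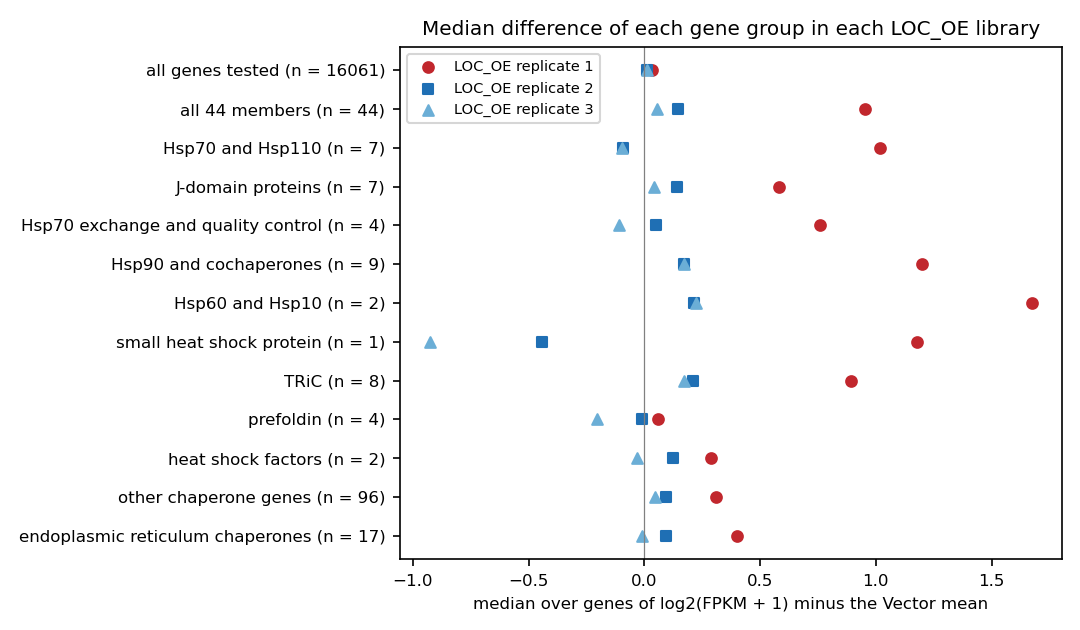
Median over genes of log2(FPKM + 1) minus the Vector mean, on the horizontal axis, for all genes tested, the 44 chaperone genes, their families and other chaperone genes, with 1 symbol per LOC_OE library. The red circle of LOC_OE replicate 1 is at 0.95 for the 44 genes and at 0.03 for all genes, and prefoldin and the heat shock factors lie nearest to the all-gene value.

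Heat shock elements were looked for in RefSeq promoter windows (GRCh38.p14), which run from 250 bases before to 50 bases after a transcript start. The pair GAANNTTC, which reads the same on both strands, and the longer form of 3 units, GAANNTTCNNGAA or TTCNNGAANNTTC, were searched. The longer form always holds the pair, so the 2 searches overlap. Of the 44 genes, 38 matched the table, with 54 windows. The pair was found in 17 of these windows (31.5%), compared with 6.77% of all 35116 windows. By gene, it was found in 15 of the 38 (39.5%), compared with 8.21% of all genes with a window. The longer form was found in a window of 7 genes (HSPA8, DNAJA1, DNAJB6, HSP90AA1, HSP90AB1, CHORDC1 and HSPD1), or 18.4% of the 38, compared with 0.608% of the 27305 genes in the table. A match is only a run of letters, and these genes include textbook targets of HSF1.

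Members with and without the longer form overlapped in how far LOC_OE replicate 1 lay above LOC_OE replicates 2 and 3. The ratio of FPKM had a median of 2.16 (1.26 to 2.88) over the 7 genes with it and of 1.73 (0.928 to 5.36) over the other 31. The highest ratios, 5.36 for HSPA1A and 4.40 for HSPE1, belonged to genes without the longer form in these windows. Since the members were chosen by these FPKM values, the ratios are a description, and a part of HSF1 in them was not tested.

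Among the Hsp70 and Hsp110 genes, the constitutive and the stress-inducible members followed LOC_OE replicate 1, and the mitochondrial member did not. HSPA8, the constitutive Hsp70 of the cytosol and the most abundant of the 7, was 232, 195 and 195 FPKM in the 3 Vector libraries and 551, 189 and 193 FPKM in LOC_OE replicates 1, 2 and 3. In LOC_OE replicate 1 it was 2.65-fold the Vector mean, and the other two LOC_OE libraries lay just under the lowest Vector value. Its promoter window is printed since it holds the longer form at both ends, in capitals (chr11:123062137-123062386, minus strand).
HSPA8: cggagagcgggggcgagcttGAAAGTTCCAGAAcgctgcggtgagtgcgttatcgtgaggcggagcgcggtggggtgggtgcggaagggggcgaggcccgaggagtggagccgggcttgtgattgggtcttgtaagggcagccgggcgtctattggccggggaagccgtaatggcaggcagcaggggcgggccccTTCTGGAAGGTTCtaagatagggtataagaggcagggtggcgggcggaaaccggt

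HSPA1A and HSPA1B encode the same heat-inducible Hsp70 and lie side by side on chromosome 6, at chr6:31815464-31817946 and chr6:31827735-31830255 (GRCh38). Their transcripts are nearly identical, so reads can be split between them by the counting, and HSPA1A received 4.23% to 11.0% of the reads of the pair. HSPA1B was 35.7, 32.6 and 29.4 FPKM in the 3 Vector libraries and 83.7, 24.2 and 22.0 FPKM in LOC_OE replicates 1, 2 and 3. HSPA1A was 2.30, 4.10 and 2.56 FPKM in Vector and 6.21, 1.33 and 0.987 FPKM in LOC_OE. For both, LOC_OE replicate 1 was the highest library and LOC_OE replicates 2 and 3 were the lowest. The sum of the pair, which does not depend on the split, was 38.0, 36.7 and 31.9 FPKM in Vector. It was 90.0, 25.5 and 22.99 FPKM in LOC_OE, again above and below the Vector range. Exons of HSPA1B also share 920 of 2521 bases with AL671762.1 on the same strand, which the sum does not correct for. The mean of HSPA1B hid this spread, at 32.5 ± 3.18 FPKM in Vector and 43.3 ± 35.0 FPKM in LOC_OE (mean ± SD, n = 3 each). Its log2 difference was 0.13 over all libraries, −0.48 without LOC_OE replicate 1 and −0.12 after rescaling to the same sum. The window before HSPA1B is printed for its single GAANNTTC pair, in capitals, without the longer form (chr6:31827488-31827737, plus strand).
HSPA1B: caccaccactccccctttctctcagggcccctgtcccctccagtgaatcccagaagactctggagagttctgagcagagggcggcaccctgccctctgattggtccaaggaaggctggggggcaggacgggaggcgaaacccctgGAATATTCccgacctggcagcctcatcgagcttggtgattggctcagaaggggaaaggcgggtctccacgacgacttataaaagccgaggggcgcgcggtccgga

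HSPA9 (mortalin), the Hsp70 of the mitochondrial matrix, was 74.3, 68.5 and 69.9 FPKM in the 3 Vector libraries and 124, 137 and 129 FPKM in LOC_OE replicates 1, 2 and 3. The 3 LOC_OE libraries lay close together and far above Vector, and LOC_OE replicate 1 was the lowest of them. The group values were 70.9 ± 3.02 FPKM in Vector and 130.1 ± 6.73 FPKM in LOC_OE (mean ± SD, n = 3 each), a log2 difference of 0.87 ± 0.08 (SE), which was 0.90 without LOC_OE replicate 1 and 0.61 after rescaling. Of the 44 genes it was the only one whose adjusted p stayed under 0.05 whichever of the 6 libraries was left out. The genes were chosen by these same values, so this is a description and no test of HSPA9. No GAANNTTC pair was found in its window.

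HSPH1, an Hsp110 that serves as a nucleotide exchange factor for Hsp70, was 4.60, 4.24 and 4.52 FPKM in the 3 Vector libraries and 16.8, 6.82 and 6.42 FPKM in LOC_OE replicates 1, 2 and 3. Its libraries were ordered without overlap, with LOC_OE replicate 1 at 3.77-fold and the mean of LOC_OE replicates 2 and 3 at 1.49-fold the Vector mean. HSPA4, another Hsp110, was at 1.57-fold the Vector mean in LOC_OE replicate 1 and 0.914-fold in the other two. Its log2 difference between the groups was 0.13, and −0.13 after rescaling to the same sum. HSPA14, the Hsp70 of the ribosome-associated complex, was at 2.13-fold and 1.06-fold. Both were thus high in LOC_OE replicate 1 and near Vector in LOC_OE replicates 2 and 3, as HSPA8 was.

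J-domain proteins deliver substrates to Hsp70 and start its ATP cycle. DNAJC2 (MPP11), which works with HSPA14 at the ribosome, was 5.62, 5.80 and 5.62 FPKM in the 3 Vector libraries and 16.1, 10.1 and 10.3 FPKM in LOC_OE replicates 1, 2 and 3. LOC_OE replicates 2 and 3 were both well above Vector and LOC_OE replicate 1 was higher again, with a log2 difference between the groups of 0.95 ± 0.17 (SE) and of 0.74 without LOC_OE replicate 1. DNAJA1, the most abundant J-domain gene of the 7, was 77.3, 66.2 and 68.1 FPKM in the 3 Vector libraries and 169.7, 77.6 and 72.4 FPKM in LOC_OE replicates 1, 2 and 3. DNAJB1, the classical Hsp40 of the heat shock response, was 31.0, 28.4 and 27.6 FPKM in Vector and 78.1, 30.9 and 28.5 FPKM in LOC_OE. LOC_OE replicate 1 was 2.41-fold and 2.69-fold the Vector mean for these genes, while LOC_OE replicates 2 and 3 were inside the Vector range or, in replicate 2 for DNAJA1, just above it. DNAJB6, DNAJC7 and DNAJA2 had smaller folds, with LOC_OE replicate 1 at 1.40-fold, 1.58-fold and 1.299-fold the Vector mean. For DNAJA2 the log2 difference between the groups turned from 0.14 to −0.12 after rescaling to the same sum, and that of LOC_OE replicate 1 from Vector turned from 0.37 to −0.03. DNAJB4, an Hsp40 close to DNAJB1, was level with Vector in LOC_OE replicate 1 (1.01-fold) and at 0.668-fold in LOC_OE replicates 2 and 3, and was below Vector in LOC_OE replicate 1 as well after rescaling (−0.35 on the log2 scale).

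The 4 exchange factors and quality control genes were all highest in LOC_OE replicate 1 and differed in the other LOC_OE libraries. BAG3, a stress-inducible exchange factor that links Hsp70 to autophagy and the most abundant of these 4 genes, was 41.0, 34.7 and 36.4 FPKM in the 3 Vector libraries and 57.1, 25.5 and 25.4 FPKM in LOC_OE replicates 1, 2 and 3. LOC_OE replicate 1 was above and LOC_OE replicates 2 and 3 were below all Vector libraries, so that the log2 difference was −0.16 with and −0.53 without LOC_OE replicate 1. BAG2, which inhibits the ubiquitin ligase STUB1, was 8.63, 8.45 and 8.83 FPKM in Vector and 16.0, 11.0 and 10.3 FPKM in LOC_OE. STUB1 (CHIP), the ligase that marks Hsp70 and Hsp90 clients for degradation, was 18.9, 18.8 and 17.5 FPKM in Vector and 30.3, 21.4 and 19.3 FPKM in LOC_OE. In BAG2 and STUB1 every LOC_OE library was above every Vector library, by little for LOC_OE replicate 3 of STUB1. After rescaling to the same sum this held for BAG2 but not for LOC_OE replicates 2 and 3 of STUB1. HSPBP1, an exchange factor that also restrains STUB1, was 24.2, 22.4 and 20.2 FPKM in Vector and 46.3, 20.6 and 18.0 FPKM in LOC_OE, high in LOC_OE replicate 1 only, with a log2 difference between the groups of 0.21, or −0.04 after rescaling. Exons of BAG2 share 2842 of 6651 bases with RAB23 on the other strand, and exons of STUB1 share 983 of 2316 bases with JMJD8. Whether the reads were counted by strand is not given in the sources used here, and RAB23 (1.67 to 2.25 FPKM) and JMJD8 (3.73 to 6.87 FPKM) were lower than their partners in each library.

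The Hsp90 genes and their cochaperones were all highest in LOC_OE replicate 1, with a median difference of the 9 genes from Vector of 1.20 there, against 0.17 in each of LOC_OE replicates 2 and 3 (0.83, −0.008 and −0.002 after rescaling to the same sum). HSP90AB1, the constitutive Hsp90 and the most abundant of the 44 genes, was 733, 665 and 670.5 FPKM in the 3 Vector libraries and 1502, 785 and 777 FPKM in LOC_OE replicates 1, 2 and 3. HSP90AA1, the stress-inducible Hsp90, was 261, 241 and 256 FPKM in the 3 Vector libraries and 747, 293 and 274 FPKM in LOC_OE replicates 1, 2 and 3. Both were above every Vector library in all 3 LOC_OE libraries, at 2.18-fold and 2.95-fold the Vector mean in LOC_OE replicate 1 but only 1.13-fold and 1.12-fold in the others. After rescaling to the same sum, neither gene was above every Vector library in LOC_OE replicates 2 and 3. The constitutive to inducible ratio was 2.62 to 2.81 in Vector, 2.01 in LOC_OE replicate 1, and 2.68 and 2.84 in LOC_OE replicates 2 and 3.

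1 of the 2 windows of HSP90AA1 (chr14:102087045-102087294, minus strand) and the window of CHORDC1 (chr11:90223050-90223299, minus strand), a zinc-binding cochaperone of Hsp90, both hold the longer form and are shown for comparison with HSPA8. Capitals mark the matches to either search.
HSP90AA1: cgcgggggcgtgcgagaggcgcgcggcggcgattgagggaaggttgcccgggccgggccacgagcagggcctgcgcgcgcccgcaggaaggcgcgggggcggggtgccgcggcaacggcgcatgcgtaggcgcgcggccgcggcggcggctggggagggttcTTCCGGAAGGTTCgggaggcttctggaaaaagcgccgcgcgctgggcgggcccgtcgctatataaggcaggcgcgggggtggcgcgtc
CHORDC1: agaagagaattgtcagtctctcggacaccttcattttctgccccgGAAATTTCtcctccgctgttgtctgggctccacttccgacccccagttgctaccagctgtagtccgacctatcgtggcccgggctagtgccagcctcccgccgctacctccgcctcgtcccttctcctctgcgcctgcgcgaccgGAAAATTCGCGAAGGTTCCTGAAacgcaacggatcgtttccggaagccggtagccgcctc
CHORDC1 was 2.54-fold the Vector mean in LOC_OE replicate 1 and 1.18-fold in LOC_OE replicates 2 and 3, close to the folds of HSP90AA1.

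Of the cochaperones, PTGES3 (p23), which stabilises the closed form of Hsp90, was 91.7, 75.7 and 79.7 FPKM in the 3 Vector libraries and 266, 121 and 122 FPKM in LOC_OE replicates 1, 2 and 3. FKBP4 (FKBP52), a peptidyl-prolyl isomerase of steroid receptor complexes, was 36.9, 36.2 and 35.1 FPKM in the 3 Vector libraries and 106, 56.7 and 55.9 FPKM in LOC_OE replicates 1, 2 and 3. LOC_OE replicates 2 and 3 were nearly equal for both genes and above Vector, at 1.48-fold for PTGES3 and 1.56-fold for FKBP4, and LOC_OE replicate 1 was higher again, at 3.23-fold and 2.93-fold. The log2 difference was 0.93 ± 0.24 (SE) for FKBP4 and 0.94 ± 0.31 (SE) for PTGES3, and 0.63 and 0.56 without LOC_OE replicate 1. AHSA1, which stimulates the ATPase of Hsp90, and STIP1 (HOP), which bridges Hsp70 and Hsp90, were 2.64-fold and 2.21-fold the Vector mean in LOC_OE replicate 1, and 1.10-fold and 1.07-fold in the others. CDC37, the cochaperone for kinases, and TRAP1, the mitochondrial Hsp90, had the smallest folds of the 9, 1.40 and 1.41 in LOC_OE replicate 1. The log2 difference of CDC37 between the groups turned from 0.18 to −0.08 after rescaling to the same sum. Exons of TRAP1 share 1531 of 5227 bases with DNASE1 on the other strand.

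HSPD1 and HSPE1 encode Hsp60 and its lid Hsp10, the chaperonin of the mitochondrial matrix, and lie head to head on chromosome 2 (chr2:197486581-197516737 on the minus strand and chr2:197499994-197503457 on the plus strand). HSPD1 was 217, 189 and 199.8 FPKM in the 3 Vector libraries and 563, 319 and 309.7 FPKM in LOC_OE replicates 1, 2 and 3. HSPE1 was 18.2, 17.6 and 19.3 FPKM in the 3 Vector libraries and 69.7, 15.5 and 16.2 FPKM in LOC_OE replicates 1, 2 and 3. The partners parted in LOC_OE replicates 2 and 3, where HSPD1 was 1.56-fold and HSPE1 0.863-fold the Vector mean, whereas both were highest in LOC_OE replicate 1, at 2.79-fold and 3.80-fold. The ratio of HSPD1 to HSPE1 was accordingly 10.4 to 12.0 in Vector, 8.08 in LOC_OE replicate 1, and 20.6 and 19.1 in LOC_OE replicates 2 and 3. The log2 difference between the groups was 0.92 ± 0.24 (SE) for HSPD1 and 0.49 ± 0.55 (SE) for HSPE1, and 0.64 and −0.20 without LOC_OE replicate 1.

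The counting can blur the levels of this pair. HSPE1 has 26 pseudogenes in the annotation, which together held 2.27% to 8.71% as many reads as HSPE1. For the other members with pseudogenes named after their own symbol, this share was at most 1.46%. Pseudogenes under other names, such as HSP90AA2P, were left out of it. No share is therefore given for HSP90AA1, HSP90AB1 or CCT6A. The exons of HSPD1 and HSPE1 also overlap by 281 bases on opposite strands, out of 1977 bases for HSPE1. One window of each gene is printed because the longer form lies between the RefSeq starts of these 2 windows. The gene spans given above reach past these starts and include the element. HSPD1 has another window, from another start, that does not hold the longer form. In the window of HSPD1 (chr2:197499841-197500090, minus strand) it spans chr2:197500068-197500085, 228 bases before the HSPD1 start and 294 bases before the HSPE1 start on the other strand, which puts it just outside the window of HSPE1 (chr2:197500129-197500378, plus strand). No pair was found inside the latter, and so it carries no capitals.
HSPD1: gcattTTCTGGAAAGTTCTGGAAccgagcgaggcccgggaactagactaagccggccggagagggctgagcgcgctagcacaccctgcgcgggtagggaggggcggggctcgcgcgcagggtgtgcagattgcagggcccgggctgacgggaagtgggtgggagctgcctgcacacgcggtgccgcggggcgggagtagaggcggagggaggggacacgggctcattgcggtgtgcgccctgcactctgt
HSPE1: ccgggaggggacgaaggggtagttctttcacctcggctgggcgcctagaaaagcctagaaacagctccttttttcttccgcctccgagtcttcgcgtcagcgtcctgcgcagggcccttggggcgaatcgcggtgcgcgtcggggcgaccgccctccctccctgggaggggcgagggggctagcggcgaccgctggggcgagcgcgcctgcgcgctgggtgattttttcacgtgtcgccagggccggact

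**Figure D3:**
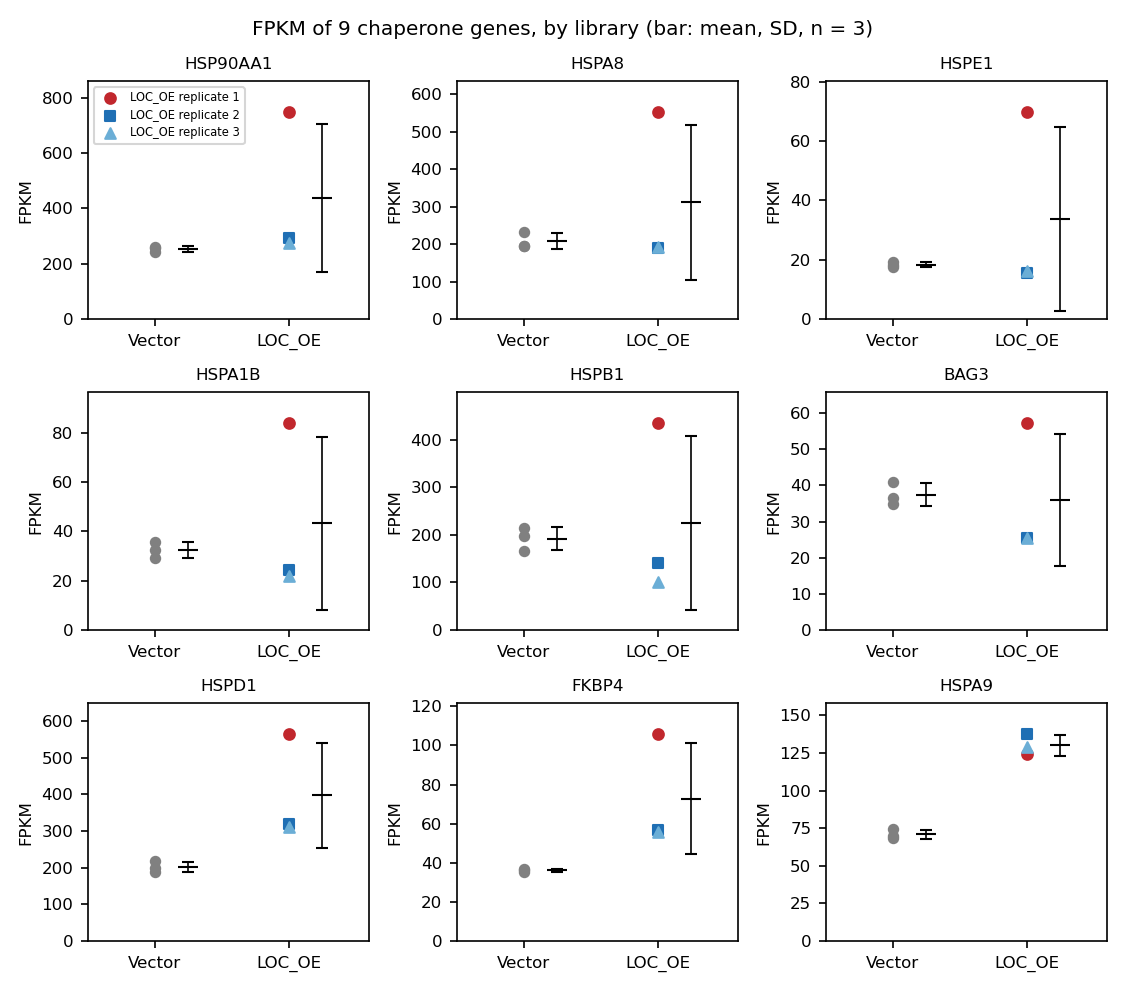
FPKM of 9 of the genes in each library, on a linear axis for each gene, with Vector in grey and the LOC_OE replicates in red, dark blue and light blue, and with the mean ± SD of each group (n = 3) beside the points. In the upper and middle rows LOC_OE replicate 1 lies far above LOC_OE replicates 2 and 3, and only for HSPD1, FKBP4 and HSPA9, in the lower row, do all 3 LOC_OE libraries lie well above Vector.

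HSPB1 (Hsp27), the small heat shock protein that binds unfolding proteins without ATP, was 214, 197 and 166 FPKM in the 3 Vector libraries and 434, 140.2 and 100.1 FPKM in LOC_OE replicates 1, 2 and 3. Replicate 1 of LOC_OE was 2.26-fold and the mean of LOC_OE replicates 2 and 3 0.625-fold the Vector mean, so the log2 difference over all libraries was −0.06, and without LOC_OE replicate 1 it was −0.69. It was the only small heat shock protein listed that passed the filter on low values, since HSPB2, HSPB3, HSPB6, HSPB7, HSPB8, HSPB9, CRYAA and CRYAB did not.

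The 8 subunit genes of TRiC, which folds actin and tubulin, were all highest in LOC_OE replicate 1. Their summed FPKM was 659.9 to 723.9 in Vector, 1264 in LOC_OE replicate 1, and 757.0 and 742.7 in LOC_OE replicates 2 and 3. The median difference of the 8 genes from Vector was 0.89, 0.21 and 0.17 in LOC_OE replicates 1, 2 and 3. After rescaling to the same sum it was 0.48, 0.016 and −0.003, so LOC_OE replicates 2 and 3 were then level with Vector. CCT3 was the most abundant subunit in every library, at 148, 139 and 134 FPKM in the 3 Vector libraries and 234, 159 and 158 FPKM in LOC_OE replicates 1, 2 and 3. The highest subunit was 3.01 to 3.12 times the lowest in Vector, 2.35 times in LOC_OE replicate 1, and 3.19 times in each of LOC_OE replicates 2 and 3. CCT2 was 90.8, 82.6 and 82.1 FPKM in Vector and 199, 110.2 and 114 FPKM in LOC_OE, CCT5 was 49.3, 44.6 and 44.3 FPKM in Vector and 103, 54.9 and 54.0 FPKM in LOC_OE, and CCT6A was 85.7, 79.1 and 78.6 FPKM in Vector and 172, 98.2 and 91.1 FPKM in LOC_OE. For these 3 subunits, CCT3 and CCT8, all LOC_OE libraries were above all Vector libraries. For CCT4 and CCT7, LOC_OE replicates 2 and 3 were below every Vector library, and for TCP1 they were within the Vector range. After rescaling to the same sum, the log2 difference between the groups turned from 0.18 to −0.07 for CCT4 and from 0.16 to −0.10 for CCT7. Fold values in LOC_OE replicate 1 ran from 1.47 for CCT8 to 2.34 for CCT2. Exons of CCT5 share 1757 of 5839 bases with AC012640.4 on the other strand.

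The genes of prefoldin, which hands actin and tubulin chains to TRiC, differed among themselves. PFDN6, which was called lower, was 12.3, 17.3 and 14.7 FPKM in the 3 Vector libraries and 11.1, 8.003 and 6.57 FPKM in LOC_OE replicates 1, 2 and 3. All LOC_OE libraries were below all Vector libraries, with LOC_OE replicate 1 nearest to Vector, and the log2 difference was −0.74 ± 0.20 (SE), or −0.92 without LOC_OE replicate 1. Its 2953 exon bases share 724 with RGL2 and 226 with WDR46 on the other strand. WDR46 had 27.2 to 30.4 FPKM in Vector and 41.3 FPKM in LOC_OE replicate 1 and was below Vector in the other two LOC_OE libraries, and RGL2 had 16.2 to 18.7 FPKM throughout. Their part in the value of PFDN6 was not tested. PFDN5 was 51.4, 48.8 and 45.5 FPKM in Vector and 77.9, 61.2 and 59.5 FPKM in LOC_OE, with every LOC_OE library above Vector. PFDN2, the most abundant of the 4, was 183, 179.7 and 169 FPKM in Vector and 179, 209 and 167 FPKM in LOC_OE, and PFDN1 was 38.9, 38.0 and 35.6 FPKM in Vector and 40.4, 31.1 and 29.7 FPKM in LOC_OE. PFDN2 overlapped between the groups, with a log2 difference of 0.06, or −0.20 after rescaling, and PFDN1 in LOC_OE replicates 2 and 3 was below Vector. In LOC_OE replicate 1, rescaling put both below the Vector mean, by −0.30 for PFDN1 and −0.40 for PFDN2 on the log2 scale.

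HSF1, the main activator of the heat shock response, was 28.6, 26.8 and 25.3 FPKM in the 3 Vector libraries and 43.8, 30.8 and 27.1 FPKM in LOC_OE replicates 1, 2 and 3. LOC_OE replicate 1 was 1.63-fold the Vector mean, and LOC_OE replicates 2 and 3 were 1.08-fold. HSF2, a partner of HSF1 with roles in development, was 12.4, 12.6 and 11.5 FPKM in Vector and 11.2, 12.7 and 11.5 FPKM in LOC_OE, and its groups overlapped. HSF1 is activated at the protein level, which RNA values do not show.

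**Figure D4:**
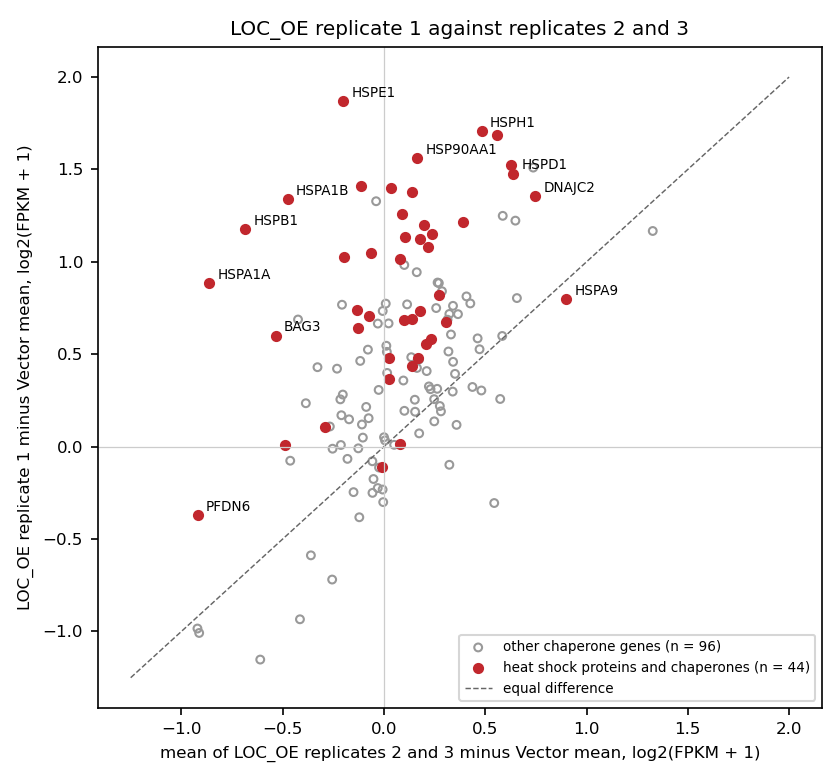
Each point is 1 gene, with the mean difference of LOC_OE replicates 2 and 3 from the Vector mean on the horizontal axis and that of LOC_OE replicate 1 on the vertical axis, both in log2(FPKM + 1). Red points are the 44 chaperone genes and open circles 96 other chaperone genes, and most red points lie far above the dashed line of equal difference, with HSPA9 just below it. The 44 genes were chosen with these values in view, so the open circles are not an unselected comparison.

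Other genes of the same protein folding systems were listed by family, with earlier results of these data known. Of 116 such genes, 96 passed the filter. The chaperone genes described above, which were chosen by their FPKM, are not among them. The 96 are therefore not an unselected set, and their shares are given as a description. LOC_OE replicate 1 was at least 1.5-fold above LOC_OE replicates 2 and 3 for 18 of the 96, or 18.8% (10.4% of all genes), and it was the highest library for 58, or 60.4% (33.4% of all genes). Relative to the Vector mean, the 96 had a median difference of 0.31 in LOC_OE replicate 1, 0.10 in replicate 2 and 0.05 in replicate 3. At an adjusted p under 0.05 (limma over all genes), 19 of the 96, or 19.8%, were higher in LOC_OE (10.7% of all genes) and 5, or 5.21%, were lower (9.74%). With a fold of at least 1.5 as well, 6 were higher (6.25%, against 4.63% of all genes) and 4 lower (4.17%, against 5.58%), shares near those of all genes. Without LOC_OE replicate 1, 5 were higher (5.21%, against 4.56%) and 3 lower (3.12%, against 5.84%) by both thresholds.

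SEC63, the J-domain protein of the protein channel into the endoplasmic reticulum, had the largest increase of the 96, from 2.15 to 2.33 FPKM in Vector to 6.29 to 7.21 FPKM in LOC_OE, a log2 difference of 1.27 ± 0.09 (SE) (adjusted p = 0.00242), with all 3 LOC_OE libraries alike. PPID (cyclophilin 40), an Hsp90 cochaperone, was 11.5, 10.4 and 10.3 FPKM in Vector and 32.3, 17.6 and 19.5 FPKM in LOC_OE (log2 difference 0.99 ± 0.22 (SE), adjusted p = 0.0263). GRPEL1, the exchange factor of mortalin, was 11.8, 10.1 and 10.5 FPKM in Vector and 26.5, 17.7 and 17.3 FPKM in LOC_OE (log2 difference 0.84 ± 0.17 (SE), adjusted p = 0.0217). Both had their highest value in LOC_OE replicate 1 and were also above Vector in the other two. BAG1, an exchange factor of Hsp70, and DNAJC9, a histone chaperone with a J domain, rose by 0.81 ± 0.19 (SE) (adjusted p = 0.0298) and 0.71 ± 0.08 (SE) (adjusted p = 0.00633) on the log2 scale. Exons of DNAJC9 share 949 of 3955 bases with FAM149B1, and those of PPID 490 of 2509 bases with ETFDH, on the other strand. PPID, GRPEL1 and BAG1 were each past the threshold without LOC_OE replicate 1 (adjusted p of 0.00186, 0.00236 and 0.00162) but not when any Vector library was left out (adjusted p up to 0.103, 0.0938 and 0.108).

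In the other direction, DNAJB2 was 9.64, 9.52 and 8.90 FPKM in Vector and 4.23, 4.55 and 4.38 FPKM in LOC_OE (log2 difference −0.94 ± 0.08 (SE), adjusted p = 0.00307) and DNAJB5 was 4.04, 4.21 and 3.89 FPKM in Vector and 1.51, 1.70 and 1.65 FPKM in LOC_OE (log2 difference −0.94 ± 0.08 (SE), adjusted p = 0.0036). These J-domain genes were lower in all 3 LOC_OE libraries to a like degree, including LOC_OE replicate 1. DNAJB9, a J-domain protein of the endoplasmic reticulum that restrains the stress sensor IRE1, DNAJC6 (auxilin), which uncoats clathrin vesicles, and DNAJC4 fell, with differences of −0.79 ± 0.16 (SE), −0.59 ± 0.16 (SE) and −0.44 ± 0.10 (SE) on the log2 scale (adjusted p of 0.0206, 0.0476 and 0.0266). DNAJC4 had a fold under 1.5. When any 1 Vector library was left out, none of these 3 was under an adjusted p of 0.05 (up to 0.0897, 0.152 and 0.0993), and DNAJC6 and DNAJC4 were also above it when LOC_OE replicate 2 or 3 was left out. Without LOC_OE replicate 1 the adjusted p was 0.00119, 0.0142 and 0.00912.

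Among the 17 chaperones of the endoplasmic reticulum, 4 were higher (10.7% of all genes were) and 1 was lower (9.74%) at an adjusted p under 0.05. The median log2 difference of the 17 was 0.18, and 0.015 without LOC_OE replicate 1, where 10 were above 0 and 7 below. Those below included CALR at −0.33 and MANF at −0.39, named after their values were seen. HSPA5 (BiP), the Hsp70 of that compartment, was 331, 306 and 312 FPKM in the 3 Vector libraries and 390.3, 453 and 430.1 FPKM in LOC_OE replicates 1, 2 and 3 (log2 difference 0.42 ± 0.10 (SE), adjusted p = 0.0319). Unlike HSPA8 it was lowest of the LOC_OE libraries in LOC_OE replicate 1, and all 3 were above Vector. HSP90B1 (GRP94), the Hsp90 there, was 94.0, 95.0 and 95.5 FPKM in Vector and 136, 126 and 111 FPKM in LOC_OE (log2 difference 0.38 ± 0.10 (SE), adjusted p = 0.0398). HSPA5 and HSP90B1 were chosen for mention after their values were seen, as the counterparts of HSPA8 and HSP90AA1, and the adjusted p of HSPA5 was under 0.05 in 1 and that of HSP90B1 in 2 of the 6 fits without 1 library (up to 0.142 and 0.145). Their log2 differences were 0.16 and 0.12 after rescaling to the same sum. For HSPA5 the difference of LOC_OE replicate 1 from Vector turned from 0.304 to −0.108 with that rescaling. For HSP90B1 it was 0.105. HSPA6, an Hsp70 that is nearly silent without stress, was below the filter, with 2, 3 and 4 reads in Vector, compared with 18, 5 and 11 in LOC_OE replicates 1, 2 and 3, and was also named after its values were seen.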

How the data were processed

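RNA of RKO cells was sequenced in 3 Vector and 3 LOC_OE libraries, grouped by their labels. The authors deposited 1 table of FPKM for 58735 genes, which was used as deposited, with 0 unused columns of values. The submitters' processing notes name HISAT2 2.0.4, StringTie 1.3.0 and hg38, but the counting tool and strand are not given in the sources used here. Multiplied by the merged exon length of GENCODE version 29, 100% of the values were whole reads (tolerance 0.05 reads), and the libraries had been scaled to one another by their median of ratios. Merged exons lower the FPKM of genes with long rare isoforms. Read numbers cover counting error only.

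Expression was tested in R 4.3.3 with limma 3.58.1 on log2(FPKM + 1), allowing a variance trend, among genes that reached 0.5 FPKM in 3 or more libraries. P-values were adjusted over the 16061 genes by Benjamini-Hochberg, and a call needed an adjusted p under 0.05 and a fold of at least 1.5. On this scale the change of low genes is understated. A difference is LOC_OE minus Vector. The steps were tested on simulated data.

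The 44 members and all lists were chosen with earlier results of these data known. FPKM is printed for every library for up to 3 members per family with the largest differences, the most abundant member, HSPA1A, HSPA1B, HSPD1, HSPE1, HSF1 and HSF2. Of the related genes, the 5 largest increases and 5 largest decreases with an adjusted p under 0.05 are named. HSPA14 was taken as ENSG00000187522, since a second identifier with that symbol now has another name. Promoter windows are RefSeq sequences of GRCh38.p14. Summaries and figures used Python 3.11.15 and matplotlib 3.10.9. Alternatives were the same sum of FPKM in each library, a pseudocount of 0.1, no filter on low values, a filter at a mean FPKM of 1, a median-of-ratios rescaling, no variance trend, voom on the recovered reads, the replicate number as a block, a fold of at least 2 and leaving out each library.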

Additional observations from a re-analysis of the deposited data

How the results depend on the processing

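The group sizes and the 1 library that stood apart set the limits. Among the 44 genes, the count called higher was 4 and became 2 with no filter on low FPKM and 0 at a fold of at least 2 (where 126 genes in all were called higher and 237 lower), and the count called lower was 1 and became 0 with no filter, with no variance trend, with the replicate block and at a fold of at least 2. Leaving out 1 library gave 1 to 4 called higher and 0 to 3 called lower, the 3 without LOC_OE replicate 1. Of the related genes 1 was called higher and 0 lower at a fold of at least 2, and leaving out a library gave 2 to 7 higher and 2 to 3 lower. Over all genes, leaving out a library gave 144 to 747 calls higher and 227 to 938 lower. With every library rescaled to the same sum of FPKM, 261 genes were called higher and 1787 lower, 3 related genes were called higher, and the median log2 difference of the related genes turned from 0.19 to −0.046. Deviations of same-numbered libraries correlated at 0.111, −0.034 and 0.116, so the numbers were not taken to pair the samples, and DNAJC4 was no longer under an adjusted p of 0.05 with the replicate block (adjusted p = 0.0678). The values of the 44 genes moved by less than their spread in 342 gene and setting combinations with all libraries kept, and the 10 that moved did so after the same-sum rescaling. That spread was wide where LOC_OE replicate 1 stood apart, so the count says little about stability. HSPA1B, whose difference went from 0.13 to −0.125 with that rescaling, is among the 342. No cause was tested.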
